A study of Homo sapiens with 61 samples.

Results

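The 10 genes described here encode chaperones and co-chaperones of the cytosol (HSPA1A, HSPA1B, HSPA8, HSPH1, HSP90AA1, DNAJB1, BAG3 and HSPB1) and of the mitochondrial matrix (HSPD1 and HSPE1). They were chosen by name with no measured value in the rule, but with earlier results of these data known. They were matched by symbol among the 58440 gene identifiers of both count tables. All 10 passed the filter on low counts in both experiments. RNA was sequenced from 61 libraries in 14 groups of neurons made from WTC11, a widely used line of human induced pluripotent stem cells, by switching on NGN2, a transcription factor that drives neuronal fate. Experiment 1 compared WT neurons with the lines DLK KO and LZK KO, and with DLK LZK double KO (called double KO), each line carrying NGN2 under a doxycycline-driven cassette, with 4 untreated and 4 vincristine libraries per line. DLK (gene MAP3K12) and LZK (gene MAP3K13) are kinases of the axon damage response. Experiment 2 compared neurons with Control gRNA (a scrambled guide), ATF2 gRNA or JUN gRNA, with 5 untreated and 5 vincristine libraries each, except 4 for ATF2 gRNA with vincristine. ATF2 and JUN are transcription factors, and all neurons of experiment 2, Control gRNA included, expressed the machinery of CRISPR interference, which represses the gene a guide is aimed at, and had received their guide by lentivirus. Vincristine, which destabilises microtubules, was given at 5 nM for 16 hours from day 14, and untreated neurons received the DMSO vehicle. How many clones stand behind each knockout line is not given in the sources used here, nor whether the libraries of a group came from separate cultures, so the p-values measure only the spread between these libraries, which may be technical.

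Heat shock proteins bind unfolded or partly folded proteins and keep them from clumping until they fold or are removed. HSF1, the master transcription factor of the response, binds inverted repeats of GAA in front of these genes, the heat shock elements. HSPA8 is the constantly made HSP70 of the cytosol, which in neurons also strips clathrin from synaptic vesicles, and HSPA1A and HSPA1B are its stress-inducible relatives. DNAJB1, an HSP40 (J protein), hands clients to HSP70 and triggers its ATP hydrolysis. HSPH1, an HSP110, and BAG3 help HSP70 exchange nucleotide, and BAG3 also guides clients to autophagy. HSP90AA1 is the inducible HSP90 of the cytosol. HSPB1 is a small heat shock protein that holds clients without using ATP, and its mutations cause inherited motor neuropathies. HSPD1 forms the folding chamber of mitochondria and HSPE1 its lid, and their genes lie head to head.

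The 250 bases before the RefSeq start of some of these genes (GRCh38.p14, each written 5′ to 3′ on the gene's own strand) are shown because the genes differed in their response to vincristine. Capitals mark matches to a heat shock element (GAANNTTC or TTCNNGAA, where neighbouring matches overlap) or to the AP-1 site bound by JUN dimers (TGANTCA). HSPA1A (chr6:31815293-31815542, plus strand), DNAJB1 (chr19:14518398-14518647, minus) and HSPD1 (chr2:197499841-197500090, minus) fell in both controls, WT and Control gRNA, as given further on. HSPA8 (chr11:123062137-123062386, minus) fell in Control gRNA and was not called in WT. HSP90AA1 (chr14:102087045-102087294, minus) did not fall in either control, and BAG3 (chr10:119651130-119651379, plus) carries the AP-1 site.
HSPA1A: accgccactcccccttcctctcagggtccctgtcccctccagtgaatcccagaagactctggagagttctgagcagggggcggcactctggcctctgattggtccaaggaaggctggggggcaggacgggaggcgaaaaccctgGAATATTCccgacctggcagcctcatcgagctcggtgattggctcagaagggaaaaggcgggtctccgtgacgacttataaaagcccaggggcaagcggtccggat
DNAJB1: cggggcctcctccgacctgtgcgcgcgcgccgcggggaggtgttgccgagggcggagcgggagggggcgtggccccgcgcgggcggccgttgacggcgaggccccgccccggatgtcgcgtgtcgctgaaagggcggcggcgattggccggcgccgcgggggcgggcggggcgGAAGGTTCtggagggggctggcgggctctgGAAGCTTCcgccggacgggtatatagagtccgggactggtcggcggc
HSPA8: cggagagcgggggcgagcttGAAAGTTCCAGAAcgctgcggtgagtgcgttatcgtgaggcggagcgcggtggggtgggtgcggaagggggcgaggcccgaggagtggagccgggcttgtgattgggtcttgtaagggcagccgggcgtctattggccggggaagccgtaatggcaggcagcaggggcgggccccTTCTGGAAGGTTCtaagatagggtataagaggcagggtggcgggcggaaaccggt
HSPD1: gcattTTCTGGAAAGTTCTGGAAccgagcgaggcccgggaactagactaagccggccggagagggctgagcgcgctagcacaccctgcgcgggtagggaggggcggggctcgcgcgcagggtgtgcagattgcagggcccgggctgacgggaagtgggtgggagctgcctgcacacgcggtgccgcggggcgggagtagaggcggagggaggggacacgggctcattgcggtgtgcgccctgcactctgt
HSP90AA1: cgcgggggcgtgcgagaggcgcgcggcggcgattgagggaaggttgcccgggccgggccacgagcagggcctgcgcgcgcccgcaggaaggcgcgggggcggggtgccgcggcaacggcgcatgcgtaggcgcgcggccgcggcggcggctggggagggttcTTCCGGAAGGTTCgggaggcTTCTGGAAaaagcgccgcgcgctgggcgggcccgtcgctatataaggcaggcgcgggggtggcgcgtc
BAG3: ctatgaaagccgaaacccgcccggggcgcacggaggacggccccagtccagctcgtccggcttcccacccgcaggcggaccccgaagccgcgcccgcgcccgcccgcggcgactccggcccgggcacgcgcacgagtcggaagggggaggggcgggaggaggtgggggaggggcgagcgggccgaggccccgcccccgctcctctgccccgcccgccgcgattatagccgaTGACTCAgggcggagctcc
At least 1 heat shock element was found in 7 of the 14 windows listed for the 10 genes. The 7 windows belong to 7 genes, which are the 5 shown above other than BAG3, and HSPA1B and HSPB1. DNAJB1, HSPD1 and HSP90AA1 have other listed starts, whose windows held no element and are not shown. HSPH1 and HSPE1, also not shown, fell in both controls and held no element in these windows. HSPB1 held an element and was not called in either control. The elements shown for HSPD1 lie between its start (197499840) and the one used for HSPE1 (197500379). They fall outside the HSPE1 window (197500129-197500378), so a longer HSPE1 window would hold them. Over all 35116 windows of the same length, 11.6% held an element in either form. HSPA1A and HSPA1B have GAATATTC at the same place in front of their starts, from 106 and 105 bases upstream. In DNAJB1 the 2 matches start 77 and 47 bases upstream, and in HSPA8 the head to head matches start 230 and 50 bases upstream. BAG3 had TGACTCA from 19 to 13 bases upstream, a match that 6.57% of windows hold on either strand. The CRE bound by ATF2 (TGACGTCA), which 1.65% of all windows hold, was found in 0 of the 14. These matches describe letters in these windows and do not show binding.

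Libraries held 8410729 to 14647819 counts in experiment 1 and 38925807 to 88392414 in experiment 2, summed over all genes. The neuron markers fixed for this work (9 genes, among them MAP2, TUBB3 and NEFL) were all above 1 CPM in every group, and their summed level was 6486 to 11562 CPM per library (CPM, the usual depth-scaled count, here with library sizes adjusted by TMM factors). Astrocyte markers summed to at most 8.42 CPM and mesenchymal markers to at most 3.28. Other lists reached higher sums. Oligodendrocyte lineage markers reached 45.1 CPM (most of it MBP) and markers of dividing cells 91.5 CPM, both in LZK KO with vincristine. Pluripotency markers reached 62.2 CPM in double KO with vincristine, and progenitor markers are given further on. In bulk RNA, fewer cells of a type and less RNA per cell cannot be told apart. MAP3K12 stood at 16.6 to 31.4 CPM in the lines without DLK against 72.8 to 121 in WT, and MAP3K13 at 26.7 to 37.8 in the lines without LZK against 96.8 to 145. With its guide, ATF2 stood at 0.106 to 0.997 CPM and JUN at 2.24 to 7.74 CPM. All 4 targeted genes thus went with the labels, but some also differed in other groups. JUN stood at 18.2 to 22.5 CPM in untreated ATF2 gRNA and 17.1 to 23.8 with vincristine. Control gRNA had 81.7 to 97.8 and 223 to 255. ATF2 stood at 64.5 to 77.8 CPM in untreated DLK KO against 121 to 151 in untreated WT. Untreated LZK KO and double KO had 129 to 204 and 141 to 156. The part of these differences in the results was not tested.

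Per kilobase of exon length, the order of mean levels in untreated neurons was led in both controls by HSP90AA1, HSPA8 and HSPD1 and ended with HSPB1. That length counts all annotated exons of a gene, not those of a single transcript, so the order depends on the annotation. HSP90AA1 stood at 938 ± 111 CPM per kb in WT (SD, n = 4) and at 467 ± 31.3 in Control gRNA (SD, n = 5). HSPA8 followed with 517 ± 64.1 and 417 ± 3.73, and HSPD1 with 66.8 ± 4.20 and 82.4 ± 1.44. These 3 were separated from each other and from the rest by more than their spread in each control. In WT, HSPA1A (32.4 ± 2.31) and HSPH1 (31.0 ± 2.55) did not differ beyond their spread, nor did BAG3 (6.81 ± 0.548) and HSPE1 (6.81 ± 0.850). In Control gRNA, HSPE1 (14.6 ± 0.957) and BAG3 (14.5 ± 1.56) again lay together. HSPB1 was at 4.42 ± 0.418 CPM per kb in WT and 3.06 ± 0.604 in Control gRNA, with at least 64 and 200 counts in each of these libraries. HSPA1A and HSPA1B are near-identical copies on chromosome 6 (31815464 to 31817946 and 31827735 to 31830255), so reads may have been split or dropped between them, and their summed counts are given too. HSPD1 (chromosome 2, 197486581 to 197516737) and HSPE1 (197499994 to 197503457) share 281 exon bases on opposite strands, which is 14.2% of the exon length of HSPE1. DNAJB1 shares 211 exon bases (5.75%) with TECR and HSP90AA1 197 (3.75%) with WDR20, both on the opposite strand, and whether counting used strand is not given in the sources used here.

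Vincristine lowered most of the family in WT neurons. Of the 10 genes, 7 fell and 0 rose, where 30.2% of the 18235 genes tested were called at an adjusted p under 0.05. The median log2 fold change of the 10 genes was -0.45, while that of all genes tested lay at zero. The 7 were HSPA1A, HSPA1B, HSPH1, DNAJB1, BAG3, HSPD1 and HSPE1, and the 5 of them other than BAG3 and HSPD1 had vincristine libraries that all lay below all untreated ones. The share of all genes whose groups did not overlap was not counted, here or in the comparisons below. The inducible HSP70 genes were among those that fell. HSPA1A stood at 78.9, 84.7, 85.1 and 72.9 CPM in the untreated WT libraries and at 50.1, 58.8, 49.5 and 29.9 CPM with vincristine. The vincristine libraries were all lower, at 58.7% of the untreated level in the fit, and replicate 4 was the lowest of them (log2 fold change -0.77, SE 0.12, adjusted p 1.13e-05). HSPA1B went from 28.0, 25.6, 25.5 and 26.3 CPM to 20.2, 21.5, 19.9 and 12.5 CPM, again with no overlap (-0.50, SE 0.12, adjusted p 0.00174). Summed over both copies, the change was -0.70 (SE 0.12, adjusted p 3.46e-05).

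The partners of HSP70 fell with it. DNAJB1 stood at 58.7, 59.7, 60.0 and 51.3 CPM in untreated WT and at 36.5, 43.6, 34.3 and 30.3 CPM with vincristine. All 4 vincristine libraries were below the lowest untreated one, and the log2 fold change was -0.66 (SE 0.09, adjusted p 1.3e-07). HSPH1 went from 289, 259, 254 and 237 CPM to 167, 202, 161 and 177 CPM, also with no overlap (-0.56, SE 0.08, adjusted p 7.36e-07). BAG3 overlapped between the groups, with 18.7, 18.6, 20.6 and 16.9 CPM untreated and 19.1, 15.6, 13.6 and 11.0 CPM with vincristine. Its log2 fold change of -0.33 (SE 0.13, adjusted p 0.041) lost the call with sample weights, in a fit restricted to the WT groups (adjusted p 0.136), and without untreated replicate 1, 2 or 3 or vincristine replicate 2, 3 or 4. Without those libraries it ran from -0.35 to -0.22, with adjusted p from 0.0538 to 0.154.

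The mitochondrial pair also fell. HSPD1 stood at 301, 281, 292 and 260.0 CPM in untreated WT and at 186, 221, 196 and 260.4 CPM with vincristine (-0.39, SE 0.08, adjusted p 9.81e-05), so that only vincristine replicate 4 reached the untreated range. HSPE1 went from 15.7, 13.6, 11.7 and 12.9 CPM to 6.08, 9.62, 7.39 and 10.4 CPM, and the groups did not overlap (-0.68, SE 0.19, adjusted p 0.00568). The most abundant members behaved otherwise in WT. HSPA8 stood at 2716, 2531, 2720 and 2060 CPM untreated and at 1603, 2112, 1746 and 2605 CPM with vincristine, a change of -0.31 (SE 0.12) that was not called (adjusted p 0.0510). It was called with DESeq2 (-0.32, adjusted p 0.0289), with RLE factors, with a filter at a mean of 1 CPM, and with sample weights. HSP90AA1 stood at 4159 to 5477 CPM untreated and at 4194 to 6547 CPM with vincristine, and HSPB1 at 6.36 to 7.80 and 5.82 to 7.46 CPM. Neither was called, and their groups overlapped widely.

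WT vincristine replicate 4 stood apart in this family, with the lowest HSPA1A, HSPA1B, BAG3 and DNAJB1 of its group and the highest HSPA8, HSP90AA1 and HSPD1. JUN ran from 289 to 629 CPM over the libraries of this group. Again 7 of the 10 genes were called without vincristine replicate 4. HSPA8 then fell by 0.46 on the log2 scale (SE 0.12, adjusted p 0.00374), and BAG3 was no longer called (-0.22, adjusted p 0.154). HSPA1A was then -0.61 (SE 0.09), DNAJB1 -0.59 (SE 0.08) and HSPD1 -0.50 (SE 0.07), each still called. Markers of neural progenitors moved with vincristine as well. The sum of the 5 markers, nearly all of it NES, was 729 to 771 CPM in untreated WT and 914 to 1942 CPM with vincristine, with 3 of 5 above 1 CPM and none at 0. Its part in the results was not tested.

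**Figure D1:**
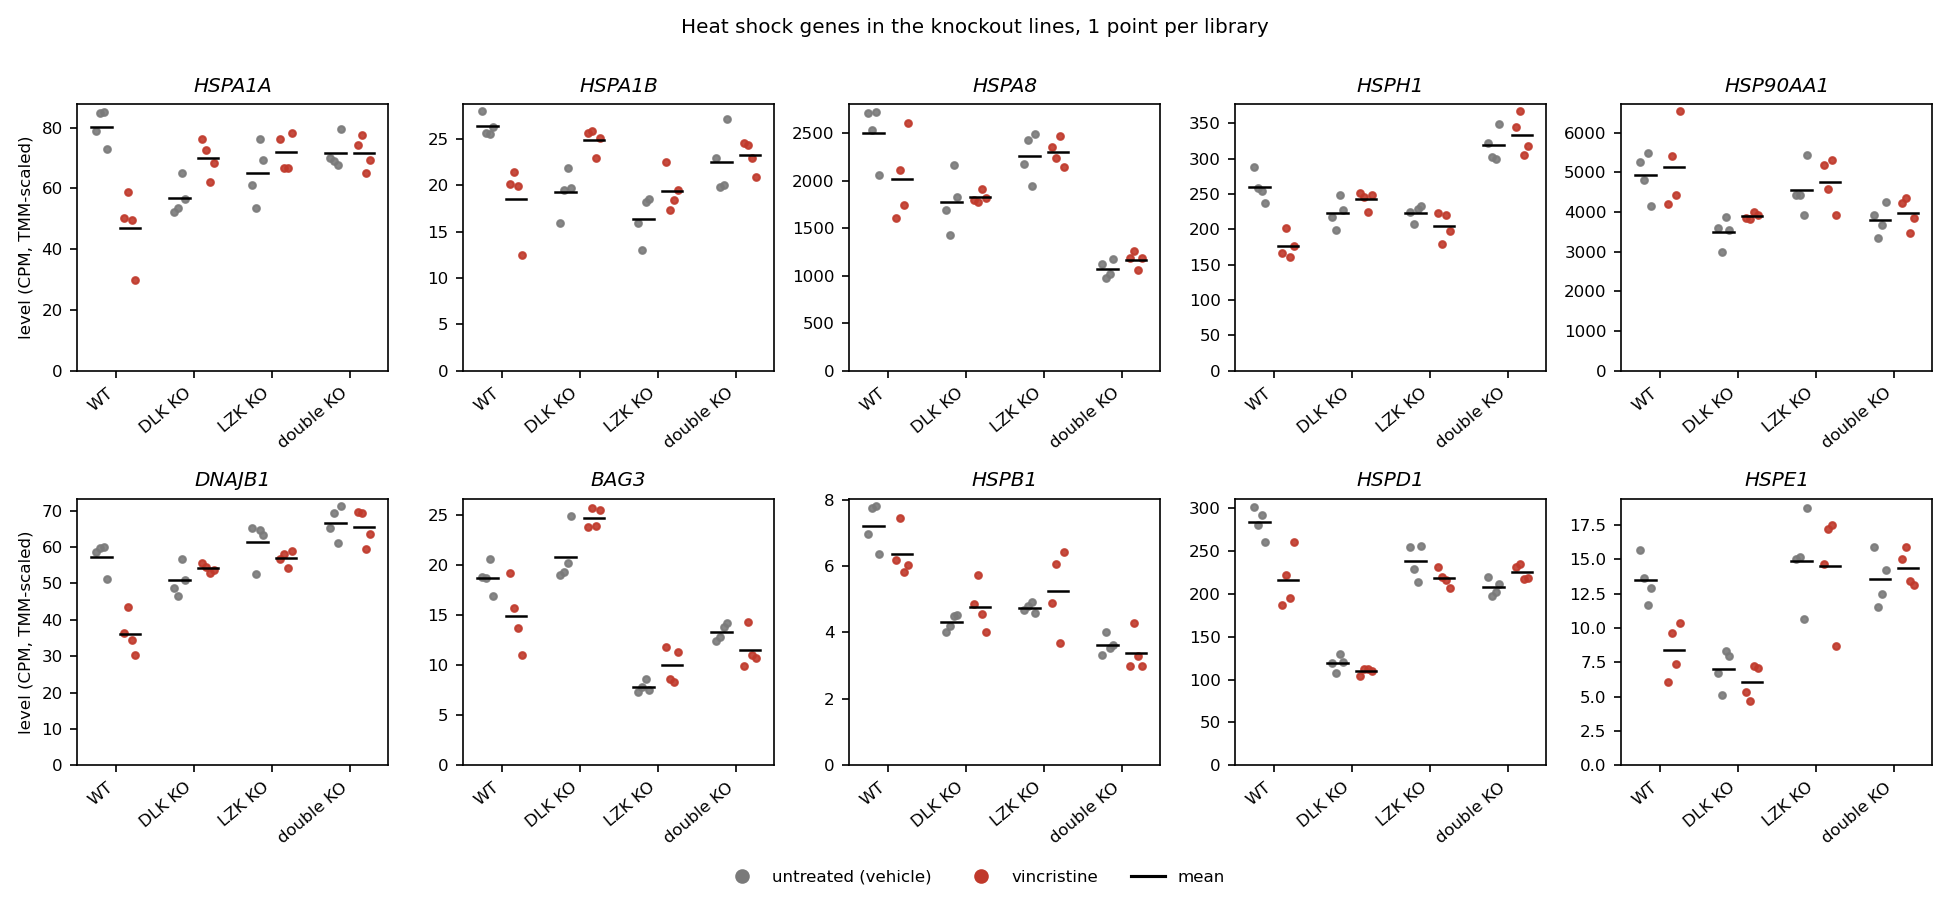
Level of each heat shock gene in CPM (vertical axes, from 0) in the 4 lines of experiment 1, with 1 point per library, grey for untreated and red for vincristine, and a black line at the mean. HSPA1A, HSPA1B, HSPH1, DNAJB1 and HSPE1 show red points wholly below grey ones in WT, and in the knockout lines the points of the 2 treatments lie close together for most genes.

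In the lines without DLK, LZK or both, none of the 10 genes was called with vincristine, in comparisons where few genes of any kind were. In DLK KO 0 of the 10 genes were called by edgeR, where 6.53% of all genes were. There 3 of the 10 had an unadjusted p under 0.05, as did 4232 of the 18235 genes tested. LZK KO gave 0 called (3.88% of all genes) and 1 at that unadjusted p, as were 2919 of all genes. Double KO gave 0 called (0.0658% of all genes) and 0 at that unadjusted p, where 1096 of all genes were. In DLK KO the count was 1 with DESeq2, 2 with no filter, 2 with sample weights and 3 in a fit of only its own 8 libraries, in each case of higher genes. In double KO it was 1 in a fit of its own 8 libraries, and in LZK KO it was 0 under each alternative. HSPA1A in DLK KO stood at 52.2, 53.5, 65.0 and 56.5 CPM untreated and at 76.3, 72.6, 62.3 and 68.5 CPM with vincristine, a log2 fold change of 0.30 (SE 0.12, adjusted p 0.139). HSPA1B was the single member with no overlap between the treatments there, at 16.0 to 21.8 CPM untreated and 23.0 to 25.9 CPM with vincristine (0.37, SE 0.12, adjusted p 0.0637). In double KO, HSPA1A stood at 67.9 to 79.4 CPM untreated and 65.1 to 77.6 CPM with vincristine. The progenitor marker sum went from 199 to 264 CPM to 476 to 592 CPM with vincristine in DLK KO, from 466 to 625 CPM to 919 to 1113 CPM in LZK KO, and from 105 to 112 CPM to 97.5 to 104 CPM in double KO. Its part in these values was not tested.

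The difference in response was tested itself, as an interaction term. Against WT, the effect of vincristine was higher for 5 genes with DLK missing (19.4% of all genes called), for 5 with LZK missing (12.4%) and for 6 with both missing (19.4%), and it was lower for 0 in each. These 3 comparisons share the WT libraries. HSPA1A, HSPA1B, HSPH1 and DNAJB1 were called in all 3. For HSPA1A the difference was 1.07 (SE 0.18, adjusted p 4.38e-05) for DLK KO, 0.91 (SE 0.18, adjusted p 0.000529) for LZK KO and 0.77 (SE 0.17, adjusted p 0.00172) for double KO. For DNAJB1 it was 0.76, 0.55 and 0.64 (SE 0.12 each). For HSPH1 it was 0.68, 0.43 and 0.62 (SE 0.11 each). Each of these values is positive, and the log2 fold change in WT itself was -0.77, -0.66 and -0.56 for the 3 genes. For HSPA8 the difference was 0.35, 0.34 and 0.44 (SE 0.17 each), not called (adjusted p 0.159, 0.209 and 0.0749). It was called in all 3 with sample weights and without WT vincristine replicate 4 (adjusted p 0.0321, 0.0404 and 0.00872). DESeq2 (adjusted p 0.0451) and leaving out WT untreated replicate 4 also called it in double KO.

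For BAG3 and the mitochondrial pair the calls against WT varied. No direct test between knockout lines called them in the edgeR fit of the whole experiment, while 2 alternatives called BAG3 and HSPD1. BAG3 was called higher against WT in DLK KO (0.58, SE 0.17, adjusted p 0.0157) and LZK KO (0.68, SE 0.20, adjusted p 0.0187) and was not in double KO (0.14, SE 0.18, adjusted p 0.647). In LZK KO its call was lost without LZK KO vincristine replicate 1 (0.59, adjusted p 0.0570) and in a fit restricted to the 4 groups of both lines (0.71, adjusted p 0.0599). HSPD1 was called in double KO (0.51, SE 0.11, adjusted p 0.000564), where HSPE1 was called too (0.78, SE 0.26, adjusted p 0.0322). For HSPE1 the value in LZK KO was 0.66 (SE 0.26, adjusted p 0.0990), which was called with no filter (0.0110), with sample weights (0.0129) and without LZK KO vincristine replicate 4 (0.84, adjusted p 0.0163). In DLK KO it was 0.48 (SE 0.29, adjusted p 0.260). In the single knockouts the difference for HSPD1 was 0.27 (SE 0.11) each and was not called, except without WT vincristine replicate 4 (0.37 in each, adjusted p 0.00321 and 0.00353) or with sample weights. The call for HSPE1 in double KO was lost when 1 of 7 libraries was left out, with values from 0.65 to 0.76 and adjusted p from 0.0534 to 0.0839. These were replicate 1 of untreated WT, replicates 1 and 3 of WT with vincristine, replicates 2 and 3 of untreated double KO, and replicates 1 and 2 of double KO with vincristine. The call for HSPA1B in double KO (0.55, SE 0.17, adjusted p 0.0214) was lost without double KO untreated replicate 2 (0.49) or 3 (0.50). Between the knockout lines themselves 0 of the 10 genes were called, for double KO against DLK KO (1.14% of all genes) and for double KO against LZK KO (0.916%). In the former 2 of the 10 had an unadjusted p under 0.05, as did 3161 of the 18235 genes tested. In the latter 2 of the 10 did, and 1672 of all genes. For double KO against DLK KO the count called was 3 with sample weights and 3 in a fit restricted to the 4 groups of both lines. These were HSPA1A, BAG3 and HSPD1 in each. BAG3 was at -0.43 with sample weights (adjusted p 0.0375) and -0.45 in the restricted fit (0.0230), and HSPD1 at 0.24 in each (0.0333 and 0.0152). In the fit of the whole experiment BAG3 had the lowest value of each comparison, -0.45 (SE 0.18, adjusted p 0.198) against DLK KO and -0.54 (SE 0.20, adjusted p 0.320) against LZK KO.

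**Figure D2:**
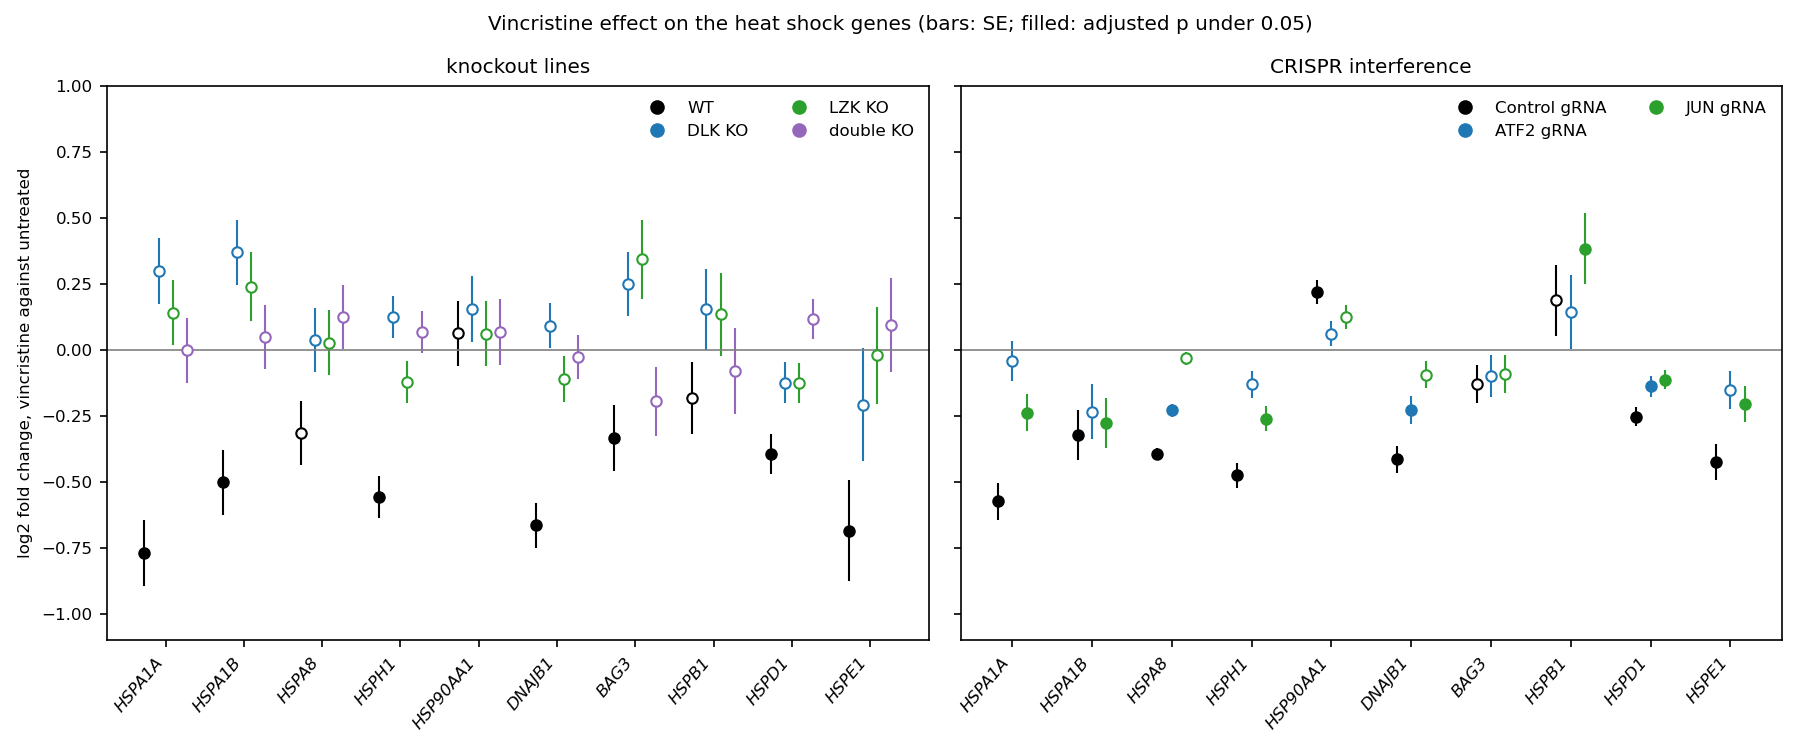
Log2 fold change of each heat shock gene with vincristine against untreated (vertical axis), with bars of 1 SE, in the 4 lines of experiment 1 (left) and the 3 guides of experiment 2 (right). Filled points were called at an adjusted p under 0.05, and filled points below zero are seen for 7 genes in WT and 7 in Control gRNA, while every point of the 3 knockout lines is open.

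In the CRISPR interference neurons the control again showed a fall of most members. With Control gRNA 7 genes fell and 1 rose, where 35.3% of 20759 genes were called. All 8 had groups that did not overlap, which was not counted over all genes. The median log2 fold change of the 10 genes was -0.36, against 0.03 over all genes. HSPA1A stood at 40.0, 50.9, 41.5, 39.0 and 38.7 CPM untreated and at 24.2, 28.5, 26.9, 28.3 and 33.3 CPM with vincristine. Every vincristine library was below every untreated one (-0.57, SE 0.07, adjusted p 5.06e-09). HSPH1 went from 169.6, 167, 206, 179.9 and 175 CPM to 137, 129, 128, 129 and 123 CPM (-0.47, SE 0.05, adjusted p 3.56e-11). DNAJB1 went from 83.0, 86.3, 85.0, 86.9 and 91.7 CPM to 64.0, 64.3, 64.5, 67.6 and 64.6 CPM (-0.41, SE 0.05, adjusted p 3.7e-09), a narrow band in either group. HSPA1B fell by 0.32 on the log2 scale (SE 0.10), HSPE1 by 0.42 (SE 0.07) and HSPD1 by 0.25 (SE 0.04).

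Here the constant HSP70 fell as well and the inducible HSP90 rose. HSPA8 stood at 1995, 2046, 2018, 2021 and 2025 CPM untreated and at 1604, 1538, 1515, 1512 and 1519 CPM with vincristine, 76.1% of the untreated level (-0.39, SE 0.02, adjusted p 3.13e-18). Its SE was the smallest of the 10 genes. HSP90AA1 went the other way, from 2261, 2297, 2646, 2527 and 2518 CPM to 3086, 2793, 2738, 2820 and 2832 CPM, with every vincristine library above every untreated one (0.22, SE 0.05, adjusted p 0.000247). BAG3 (35.3 to 46.0 CPM untreated, 32.8 to 42.8 CPM with vincristine) and HSPB1 (4.14 to 6.56 and 5.40 to 6.09 CPM) were not called. The progenitor marker sum moved with vincristine here too, from 1309 to 1398 CPM untreated to 2427 to 2524 CPM, with 4 of 5 markers above 1 CPM and none at 0. The neuron marker sum went from 9161 to 9615 CPM to 7661 to 8208 CPM, and the part of either was not tested.

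With ATF2 repressed, 3 genes fell with vincristine (6.1% of all genes called), which were HSPA8, DNAJB1 and HSPD1. HSPA8 stood at 2034 to 2159 CPM untreated and at 1775 to 1819 CPM with vincristine (-0.23, SE 0.03, adjusted p 1.56e-08). DNAJB1 went from 85.4 to 105 CPM to 71.2 to 81.7 CPM (-0.23, SE 0.05, adjusted p 0.00508) and lost its call without ATF2 gRNA vincristine replicate 2 (-0.18, adjusted p 0.0518), with sample weights and in a fit restricted to the ATF2 gRNA groups. HSPD1 went from 387 to 419 CPM to 360.2 to 382 CPM (-0.14, SE 0.04, adjusted p 0.0208). Its call was lost with RLE factors, in the restricted fit, and without untreated replicate 2, 3 or 5 or vincristine replicate 2, 4 or 5, with values from -0.14 to -0.12. HSPA1A lay at 31.2 to 35.2 CPM untreated and 31.4 to 33.2 CPM with vincristine, and was not called. The neuron marker sum went from 6983 to 7392 CPM to 6486 to 6751 CPM and the progenitor sum from 738 to 817 CPM to 699 to 806 CPM, and their part was not tested. The count of 3 was 1 without vincristine replicate 2 and 1 in the restricted fit.

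With JUN repressed, 5 genes fell with vincristine and 1 rose (15.9% of all genes called). HSPH1 went from 202 to 225 CPM to 161 to 189 CPM (-0.26, SE 0.05, adjusted p 5.88e-05), and this call held in every alternative run. HSPA1A went from 38.4 to 43.7 CPM to 30.7 to 38.2 CPM (-0.24, SE 0.07, adjusted p 0.0136), a call lost without JUN gRNA vincristine replicate 2 (-0.20, adjusted p 0.0636). HSPA1B (-0.28), HSPE1 (-0.21) and HSPD1 (-0.11) also fell, and HSPB1 rose from 3.32 to 4.41 CPM to 4.25 to 5.94 CPM (0.38, SE 0.13, adjusted p 0.0442). Each of these 4 calls was lost when any one of several libraries was left out. HSPA1B was not called without untreated replicate 1, 4 or 5 or vincristine replicate 1, 2 or 5, HSPE1 without untreated replicate 1 or 3 or vincristine replicate 1 or 3, HSPD1 without untreated replicate 1 or 4 or vincristine replicate 1 or 2, and HSPB1 without untreated replicate 1, 4 or 5 or vincristine replicate 1, 3 or 4. Their log2 values without these libraries ran from -0.28 to -0.25, from -0.20 to -0.14, from -0.10 to -0.08 and from 0.31 to 0.40. HSPB1 also lost its call with no filter (adjusted p 0.108) and in a fit restricted to the JUN gRNA groups (0.0535), and that fit ended the calls of HSPD1 and HSPE1 too. HSP90AA1 (0.13, SE 0.05, adjusted p 0.0596) was not called, but was called higher with DESeq2 (0.0231), RLE factors, a filter at a mean of 1 CPM, sample weights, the restricted fit, and without untreated replicate 4 or vincristine replicate 1. The progenitor marker sum went from 957 to 1080 CPM untreated to 1657 to 1764 CPM with vincristine, and the neuron marker sum from 8845 to 9479 CPM to 7669 to 7997 CPM, and their part was not tested. The count of 6 was 2 without JUN gRNA untreated replicate 1, and 3 without vincristine replicate 1 or 2.

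Tested as a difference from Control gRNA, the effect of vincristine was higher for 4 genes in ATF2 gRNA (20.6% of all genes called) and for 4 in JUN gRNA (15.8%), and lower for 0. These comparisons share the Control gRNA libraries. HSPA1A, HSPA8 and HSPH1 were called in both. HSPA1A differed by 0.53 (SE 0.10, adjusted p 0.000109) in ATF2 gRNA and 0.34 (SE 0.10, adjusted p 0.0146) in JUN gRNA, and HSPH1 by 0.35 (SE 0.07) and 0.21 (SE 0.07). HSPA1B, with 0.09 and 0.05, was not called, and the summed counts of both copies gave 0.40 (SE 0.08, adjusted p 0.000374) and 0.24 (SE 0.08, adjusted p 0.0341). HSPA8 differed by 0.17 (SE 0.04, adjusted p 0.000365) and 0.36 (SE 0.03, adjusted p 1.92e-11). DNAJB1 was called in JUN gRNA (0.32, SE 0.07, adjusted p 0.000881) and was not in ATF2 gRNA (0.19, SE 0.07, adjusted p 0.0659), although DESeq2 (0.0470) and sample weights called it there. HSPE1 was called in ATF2 gRNA (0.27, SE 0.10, adjusted p 0.0467) and was not in JUN gRNA (0.22, SE 0.10, adjusted p 0.131). Without JUN gRNA vincristine replicate 1 it was called there too (0.28, adjusted p 0.0288). HSPD1 was called in neither. In JUN gRNA, DESeq2 (0.14, adjusted p 0.0392), sample weights (0.15, adjusted p 0.0102) and some fits without a library called it. In ATF2 gRNA a fit restricted to the groups compared did (0.12, adjusted p 0.0485). Between the 2 guides themselves, 1 gene was called (2.83% of all genes). That gene was HSPA8, whose effect was lower in ATF2 gRNA than in JUN gRNA by a log2 difference of -0.20 (SE 0.04, adjusted p 0.000231), a call kept in every alternative run. In JUN gRNA, HSPA8 stood at 2043, 1947, 2052, 2072 and 1967 CPM untreated and at 1943, 1922, 2007, 1982 and 2004 CPM with vincristine, 2 groups that overlap.

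Some of these differences depended on single libraries. The HSPE1 difference in ATF2 gRNA lost its call with no filter (adjusted p 0.102) and in 13 of the fits that left out a library, with values from 0.25 to 0.27. These libraries were Control gRNA untreated replicates 1, 2, 3 and 5 and vincristine replicates 2, 3 and 5, and ATF2 gRNA untreated replicates 3, 4 and 5 and vincristine replicates 2, 4 and 5. In JUN gRNA, HSPA1A lost its call without Control gRNA untreated replicate 2 (0.26) or vincristine replicate 1 (0.28). HSPH1 in JUN gRNA lost it with no filter and without Control gRNA untreated replicate 3 or vincristine replicate 5, JUN gRNA untreated replicate 1 or 5, or JUN gRNA vincristine replicate 4 or 5, with values from 0.15 to 0.20.

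**Figure D3:**
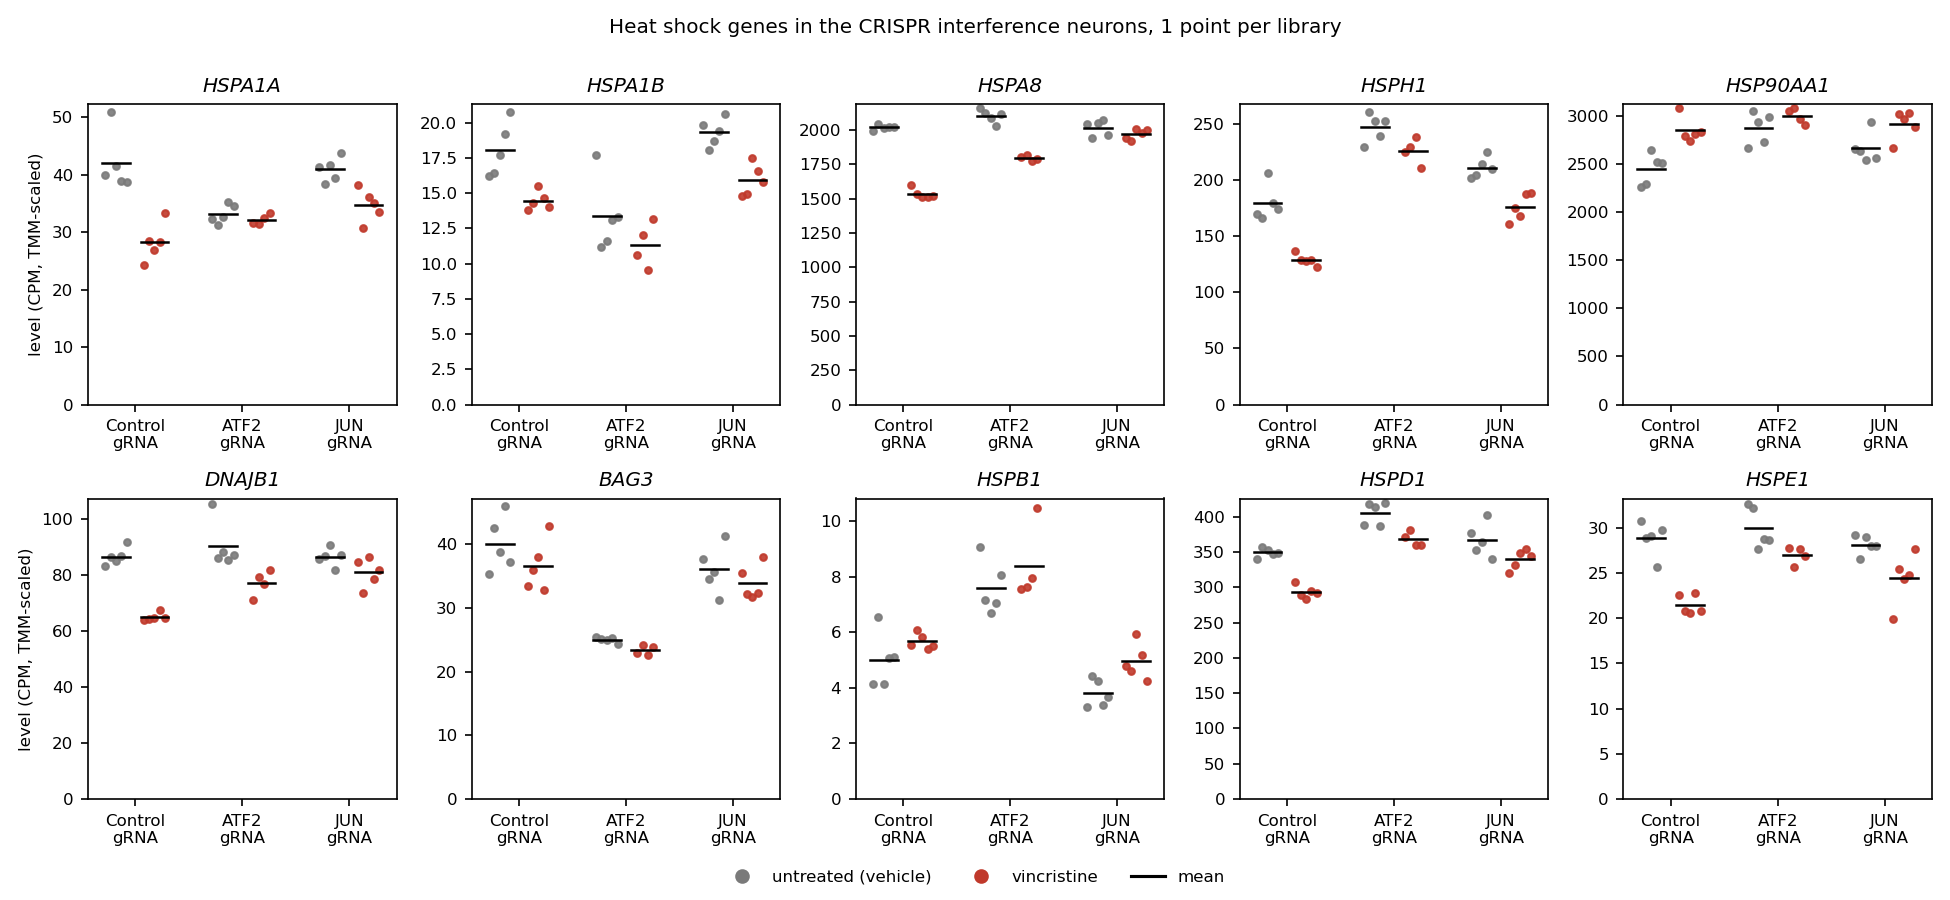
Level of each heat shock gene in CPM (vertical axes, from 0) with Control gRNA, ATF2 gRNA or JUN gRNA, with 1 point per library, grey for untreated and red for vincristine, and a black line at the mean. With Control gRNA the red points of HSPA8 (1512 to 1604 CPM) lie below all grey ones, and those of HSP90AA1 lie above them. With JUN gRNA the 2 colours overlap for HSPA8.

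The wider chaperone network was read from 8 lists of 74 genes in all, none of which holds a member of the 10. In WT, 6 of the 67 genes tested rose with vincristine and 22 fell, 41.8% called against 30.2% of all genes. In Control gRNA 8 of 68 rose and 38 fell, 67.6% against 35.3%. The HSP90 list had 8 of 12 genes lower in WT and 9 of 12 in Control gRNA, and 0 higher in either. Within that list, the largest and smallest called falls in WT were those of CACYBP, a partner of the ubiquitin machinery, at -0.70 (SE 0.12), and PTGES3 (p23), which stabilises client-bound HSP90, at -0.32 (SE 0.10). In Control gRNA they were those of STIP1, the adaptor that joins HSP70 to HSP90, at -0.45 (SE 0.03), and HSP90AB1, the constant HSP90, at -0.12 (SE 0.02). The TRiC chaperonin and prefoldin list, which folds actin and tubulin, had 5 of 14 genes lower in WT and 10 of 14 in Control gRNA, and 0 higher. Its extremes were PFDN2 (-0.42) and CCT7 (-0.23) in WT, and CCT5 (-0.32) and CCT2 (-0.11) in Control gRNA.

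The counts of the remaining lists stand beside 30.2% of all genes called in WT and 35.3% in Control gRNA. Of the partners of HSP70, 4 of 8 fell in WT and 6 of 8 in Control gRNA. BAG1, a nucleotide exchange factor, was the lowest in both, at -0.44 (SE 0.07) and -0.41 (SE 0.05). BAG5 (-0.26) in WT and ST13 (-0.12) in Control gRNA were the called members nearest to zero. Other cytosolic HSP70 and HSP110 genes gave 3 lower and 1 higher of 6 in WT, where HSPA4L, an HSP110, was at -0.42 and HSPA2, an HSP70, at 0.85 (SE 0.27). They gave 4 lower and 0 higher of 6 in Control gRNA, from HSPA4L (-0.39) to HSPA14 (-0.16). The J proteins were split. In WT 2 of 9 rose and 0 fell, a share below that of all genes. The 2 were DNAJB5 at 0.65 (SE 0.06) and the neuron-enriched DNAJB2 at 0.49 (SE 0.10). In Control gRNA 2 of 8 rose and 4 fell, from DNAJB6 at -0.40 (SE 0.04) to DNAJB5 at 0.71 (SE 0.05). Other mitochondrial chaperones and proteases were mixed too, with 3 higher and 2 lower of 13 in WT, near the share of all genes. In Control gRNA 6 were higher and 4 lower. GRPEL1, the exchange factor of mitochondrial HSP70, fell in both (-0.56 and -0.41), while its stress-linked paralog GRPEL2 rose in WT (0.67) and the protease LONP1 rose in Control gRNA (0.40). Of the other small heat shock proteins 1 of 7 was tested in experiment 1 and 3 in experiment 2, with 0 called in WT and 0 in Control gRNA.

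The transcription factor of the family was not called in the controls. HSF1 was at -0.08 (SE 0.11, adjusted p 0.627) with vincristine in WT and at 0.12 (SE 0.07, adjusted p 0.172) in Control gRNA. It rose in DLK KO (0.43, SE 0.11, adjusted p 0.0193) and JUN gRNA (0.20, SE 0.07, adjusted p 0.0321). Of its list of 4, HSBP1, which binds and restrains HSF1, fell in Control gRNA (-0.33, SE 0.03). In the other groups the lists are given beside the share of all genes called. With vincristine 4 of 67 rose and 2 fell in DLK KO (8.96% of the lists, 6.53% of all genes). In LZK KO 1 rose and 1 fell (2.99% and 3.88%), and in double KO 0 were called (0.0658% of all genes). These shares are close to those of all genes. In experiment 2 1 of 68 rose and 8 fell with ATF2 repressed (13.2% and 6.1%), and 4 rose and 13 fell with JUN repressed (25.0% and 15.9%). Compared with WT, the effect in DLK KO was higher for 13 genes and lower for 3 (23.9% and 19.4%). LZK KO gave 8 higher and 1 lower (13.4% and 12.4%), and double KO 19 higher and 3 lower (32.8% and 19.4%). Compared with Control gRNA, ATF2 gRNA gave 16 higher and 5 lower (30.9% and 20.6%), and JUN gRNA 20 higher and 4 lower (35.3% and 15.8%).

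Before any drug, the knockout lines already differed from WT in this family. In untreated DLK KO 8 of the 10 genes were lower and 0 higher (34.5% of all genes called). Untreated LZK KO had 5 lower and 0 higher (33.9%), and untreated double KO had 5 lower and 2 higher (45.7%). HSPB1 was lower in all 3 lines, at 6.98, 7.74, 7.80 and 6.36 CPM in WT, against 4.02 to 4.52 CPM in DLK KO, 4.59 to 4.90 CPM in LZK KO and 3.33 to 4.01 CPM in double KO. No knockout library reached the WT range. Its log2 fold changes were -0.75 (SE 0.15), -0.61 (SE 0.15) and -0.99 (SE 0.15). HSPD1 was also lower in all 3, at -1.25 (SE 0.08), -0.25 (SE 0.08) and -0.45 (SE 0.08).

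BAG3 set LZK KO apart. It stood at 7.28, 7.82, 8.60 and 7.53 CPM in untreated LZK KO against 18.7, 18.6, 20.6 and 16.9 CPM in WT, which is 41.8% of WT (-1.26, SE 0.14, adjusted p 2.45e-09). In double KO it was at 12.4 to 14.2 CPM (-0.50, SE 0.13, adjusted p 0.00129), and in DLK KO at 18.9 to 24.8 CPM, which was not called. The inducible HSP70 genes were lower in DLK KO (HSPA1A -0.50, HSPA1B -0.45, SE 0.12 each), and their sum was lower in LZK KO (-0.39, SE 0.12, adjusted p 0.0126), where HSPA1B was called alone (-0.68, SE 0.13) and HSPA1A was not (-0.30, adjusted p 0.0568). HSPA1A was called there with DESeq2 (adjusted p 0.0405), RLE factors, either other filter, sample weights or a fit restricted to the untreated groups of these lines. HSPH1 differed in direction by line. It was higher in double KO (299.9 to 349.7 CPM against 237 to 289 in WT, 0.30, SE 0.08) and lower in DLK KO (-0.22) and LZK KO (-0.21). The DLK KO call was lost when WT untreated replicate 1 was left out, or any of the DLK KO untreated replicates 1, 2 and 4 (-0.22 to -0.15), and the LZK KO call without WT untreated replicate 1 or its own untreated replicate 1 or 2 (-0.22 to -0.17). DNAJB1 was higher in double KO (0.22, SE 0.08), a call lost without replicate 2 or 4 of either group (0.17 to 0.22) and with no filter. HSP90AA1 was lower in DLK KO (-0.49, SE 0.12) and double KO (-0.38, SE 0.12), and the latter call was lost without WT untreated replicate 1 or 3, or without replicate 2 of the untreated double KO (-0.33 to -0.31) and with no filter.

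The largest untreated differences of HSPD1, HSPE1 and HSPA8 were shared by their chromosomal neighbours. HSPD1 in untreated DLK KO stood at 119, 108, 130.2 and 121 CPM against 260.0 to 301 CPM in WT, 42.1% of WT, and HSPE1 at 5.09 to 8.31 against 11.7 to 15.7 CPM (-0.93, SE 0.19). Of the 58 other genes tested within 5 Mb of this pair, 54 had a log2 fold change below zero and 41 were called lower, with a median of -0.80. HSPA8 (chromosome 11, 123057489 to 123063230) in untreated double KO stood at 1121, 978, 1021 and 1176 CPM against 2060 to 2720 CPM in WT, 42.9% of WT (-1.22, SE 0.12, adjusted p 2.03e-09). Of its 99 neighbours within 5 Mb, 90 were below zero and 76 called lower, with a median of -0.86. The same neighbourhoods had medians of 0.15 and 0.18 for HSPD1 in double KO and LZK KO, and of 0.06 and 0.01 for HSPA8 in DLK KO and LZK KO. Around BAG3 in LZK KO the median of 53 genes was 0.10, and around HSPB1 in double KO the median of 69 genes was -0.06. The part of the neighbourhood in these values was not tested.

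Marker sums also differed between the untreated lines. The neuron sum was 8734 to 9273 CPM in WT, 6779 to 7652 CPM without DLK, 9838 to 10505 CPM without LZK and 10330 to 10603 CPM in double KO. The progenitor sum was 729 to 771 CPM in WT and lower in each knockout line, at 199 to 264 CPM without DLK, 466 to 625 CPM without LZK and 105 to 112 CPM in double KO. Most of this sum was NES, with means of 717 CPM in WT, 226 without DLK, 516 without LZK and 92.1 in double KO. The number of progenitor markers above 1 CPM went the other way, with 3 in WT, 5 without DLK, 5 without LZK and 4 in double KO. The sum of 6 pluripotency markers was 2.88 to 3.97 CPM in untreated WT, 10.3 to 14.3 CPM without DLK, 13.2 to 18.8 CPM without LZK and 52.9 to 59.1 CPM in double KO, where LIN28A alone gave 53.4 CPM, ZFP42 was at 0 and 2 markers were above 1 CPM. The sum of 4 markers of dividing cells was 10.6 to 12.4 CPM in untreated WT, 17.0 to 18.8 CPM without DLK, 62.5 to 70.8 CPM without LZK and 23.1 to 30.5 CPM in double KO, with none at 0. Their part in the untreated differences was not tested.

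**Figure D4:**
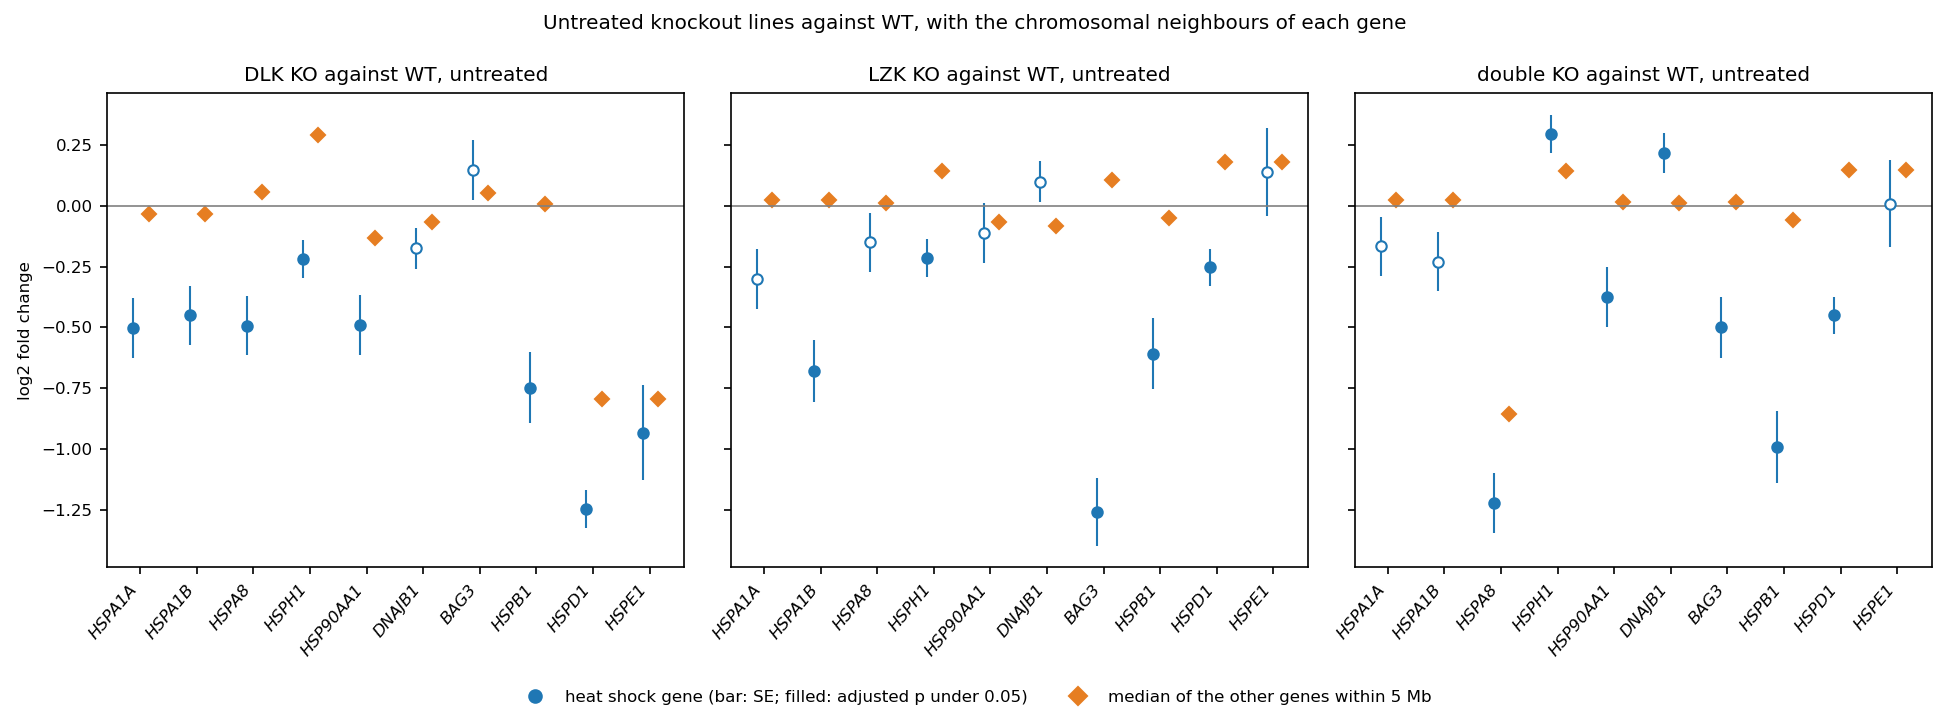
Log2 fold change of each heat shock gene in untreated knockout lines against WT (circles with bars of 1 SE, filled where called at an adjusted p under 0.05) beside the median log2 fold change of the other genes within 5 Mb (diamonds). The diamonds lie between -0.13 and 0.18 except at -0.80 for HSPD1 and HSPE1 in DLK KO, -0.86 for HSPA8 in double KO and, on the other side, 0.29 for HSPH1 in DLK KO.

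In experiment 2, untreated ATF2 gRNA neurons differed from Control gRNA for 8 genes (39.9% of all genes called), 5 higher and 3 lower, and untreated JUN gRNA neurons for 1 (11.2%). BAG3 was lower with ATF2 gRNA, at 25.4, 25.1, 25.0, 25.3 and 24.3 CPM against 35.3, 42.5, 38.7, 46.0 and 37.2 CPM (-0.67, SE 0.07, adjusted p 1.24e-10). HSPA1A (-0.34, SE 0.07) and HSPA1B (-0.44, SE 0.10) were lower too, the latter with overlap between the groups. HSPB1 was higher, at 6.70 to 9.05 CPM against 4.14 to 6.56 CPM (0.61, SE 0.13, adjusted p 0.000214), as were HSPH1 at 229.8 to 261 CPM against 167 to 206 CPM (0.46, SE 0.05), HSP90AA1 (0.23, SE 0.05) and HSPD1 (0.21, SE 0.04). HSPA8 was called higher at 0.06 (SE 0.02, adjusted p 0.0493), and lost the call with no filter (adjusted p 0.102) and in 9 fits that left out a library, namely any Control gRNA untreated library or ATF2 gRNA untreated replicate 1, 2, 3 or 5 (0.05 to 0.06). The gene called with JUN gRNA was HSPH1, at 202 to 225 CPM (0.24, SE 0.05, adjusted p 0.000487), whose 2 lowest libraries lay within the Control gRNA range. The count of 1 became 2 without Control gRNA untreated replicate 1 or JUN gRNA untreated replicate 2 or 3, 3 without Control gRNA untreated replicate 3, and 2 with DESeq2 or a filter at a mean of 1 CPM, which also called HSPB1 lower. The sum of pluripotency markers was higher with ATF2 gRNA (33.8 to 40.2 CPM against 9.58 to 13.5 in Control gRNA, with NANOG, TDGF1 and ZFP42 at 0). The progenitor sum was lower (738 to 817 against 1309 to 1398 CPM, none at 0), and most of it was NES (means of 765 and 1325 CPM). Progenitor markers above 1 CPM numbered 5 with ATF2 gRNA and 4 with Control gRNA. The part of these markers was not tested.

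As a description, the genes most like a member were found by Pearson's r over the 14 group means, each experiment centred on its own mean, among 12338 genes. The group means share libraries' depth and line within an experiment, so no p is given. For HSPD1 they were FARP2 (r 0.9811), DNAJC10 (r 0.9787) and EMB (r 0.9751), the first 2 on chromosome 2 like HSPD1. For HSPA8 they included WFIKKN1 (r 0.9728) and GLYR1 (r 0.9681), both on chromosome 16, while HSPA8 is on chromosome 11. For HSPB1 they were NHLH2 (r 0.9533), DSEL (r 0.9353) and ADCY3 (r 0.9298), and for DNAJB1 they were FGD5-AS1 (r 0.9446), SLITRK1 (r 0.9441) and FAM19A5 (r 0.9419), each on a different chromosome from the member.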

How the data were processed

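The values are raw counts per gene, deposited by the authors as 1 table for each experiment and not normalised. Reads were trimmed with cutadapt 3.4, aligned with STAR to GRCh38 and counted with featureCounts (Subread 2.0.1), per the submitters' processing notes. Duplicates had been marked in the alignments, per the file headers. Whether marked duplicates were counted, and the strand setting, are not given in the sources used here. Of 58440 gene identifiers 58320 were given a symbol through GENCODE 29. The members and lists were chosen with earlier results of these data known. Counts were tested with edgeR 4.0.16 (R 4.3.3), by its quasi-likelihood test with TMM factors, filterByExpr and 1 mean per group, in 1 fit per experiment. Genes were called at a Benjamini-Hochberg adjusted p under 0.05 over all 18235 genes (experiment 1) or 20759 genes (experiment 2) tested, in each of 20 comparisons. An SE was taken from the fitted log2 fold change and its test statistic. The same code was first tested on simulated data in which the changed genes were known. Libraries held 8410729 to 14647819 counts in experiment 1 and 38925807 to 88392414 in experiment 2. Low genes such as HSPB1 therefore rest on fewer counts in the former. Groups came from the labels, all 61 libraries were used, and of the pairs of replicates compared none differed by as little as sampling noise. Named genes were the 10 members, the 4 targeted genes as ranges, HSF1, the called gene with the highest and the one with the lowest fold change of each list in the controls, and the 3 genes most correlated with each of 4 members, of which 1 is not reported here. Alternatives were RLE factors, other filters, DESeq2 1.42.0, limma 3.58.1 with voom and sample weights (chosen after seeing the data), fits restricted to the groups compared, the replicate number as a block, and leaving out each library.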

Additional observations from a re-analysis of the deposited data

Results flagged for a closer look

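In 9 of the 140 sets of a gene and a group of 4 or 5 libraries, 1 library lay far from the others by Dixon's criterion, which chance reaches in about 1 in 20 sets. DNAJB1 was low in WT untreated replicate 4 (51.3 CPM, others 58.7 to 60.0) and in LZK KO untreated replicate 2 (52.6 CPM, others 63.2 to 65.4). It was high in Control gRNA vincristine replicate 4 (67.6 CPM, others 64.0 to 64.6) and ATF2 gRNA untreated replicate 1 (105 CPM, others 85.4 to 88.3). HSPA1A was high in Control gRNA untreated replicate 2 (50.9 CPM, others 38.7 to 41.5). Control gRNA vincristine replicate 1 had the highest HSPA8 (1604 CPM, others 1512 to 1538) and HSP90AA1 (3086 CPM, others 2738 to 2832). HSP90AA1 was high in JUN gRNA untreated replicate 4 (2945 CPM, others 2546 to 2658), and HSPB1 in ATF2 gRNA vincristine replicate 5 (10.5 CPM, others 7.56 to 7.94).

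In 25 cases the effect of vincristine differed between 2 groups in the test of the difference itself, given here as the difference in log2 fold change. Against WT, DLK KO differed for HSPA1A (1.07), HSPA1B (0.87), HSPH1 (0.68), DNAJB1 (0.76) and BAG3 (0.58). LZK KO differed from WT for HSPA1A (0.91), HSPA1B (0.74), HSPH1 (0.43), DNAJB1 (0.55) and BAG3 (0.68). Double KO differed from WT for HSPA1A (0.77), HSPA1B (0.55), HSPH1 (0.62), DNAJB1 (0.64), HSPD1 (0.51) and HSPE1 (0.78). Against Control gRNA, ATF2 gRNA differed for HSPA1A (0.53), HSPA8 (0.17), HSPH1 (0.35) and HSPE1 (0.27), and JUN gRNA for HSPA1A (0.34), HSPA8 (0.36), HSPH1 (0.21) and DNAJB1 (0.32). ATF2 gRNA differed from JUN gRNA for HSPA8 (-0.20).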

How the results depend on the processing

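Of 200 values (10 genes in 20 comparisons) 78 were called, 59 of these kept their call in every alternative run, and 0 of the called values changed sign. The count of called genes moved by more than 1.5 times in 19 of 383 alternatives. With vincristine in DLK KO it was 2 with no filter, 1 with DESeq2, 2 with sample weights and 3 in a fit restricted to the groups compared, against 0. That restricted fit gave 1 in double KO (against 0), 1 in ATF2 gRNA (against 3) and 3 for double KO against DLK KO (against 0). For the difference in vincristine effect, sample weights gave 8 for LZK KO against WT (against 5) and 3 for double KO against DLK KO. In untreated JUN gRNA the count was 2 with DESeq2 and 2 with a filter at a mean of 1 CPM, against 1. Leaving out 1 library gave 1 to 3 genes in ATF2 gRNA, 2 to 6 in JUN gRNA and 1 to 3 in untreated JUN gRNA. The cause of these moves was not tested. Among uncalled values, the HSPB1 difference of double KO against WT ran from -0.047 to 0.19 without single libraries, and the HSPE1 difference of double KO against LZK KO from -0.062 to 0.25, with -0.017 without LZK KO untreated replicate 4. Replicate numbers did not pair the libraries: libraries of a line with the same number had a median correlation of 0.0198 in experiment 1 and 0.00283 in experiment 2, and 9 of 32 and 7 of 29 libraries correlated best with their own number. With the replicate block the counts were 6 in WT (against 7) and 5 in JUN gRNA (against 6). They were 3 for the difference in vincristine effect of ATF2 gRNA against Control gRNA (against 4). In untreated ATF2 gRNA the count was 7 (against 8), and all other counts equalled those without the block. The genes not called with the block were BAG3 in WT (adjusted p 0.055) and HSPB1 in JUN gRNA (0.0537). The others were HSPE1 for that difference of ATF2 gRNA against Control gRNA (0.0584) and HSPA8 in untreated ATF2 gRNA (0.0668). The lowest count of HSPB1 in a library was 27 in experiment 1 and 184 in experiment 2.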
